A study of Mus musculus with 6 samples.

Results

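Areg, Ereg, Hbegf, Btc, Tgfa and Nrg1 encode ligands of the EGF family, Egfr and Erbb2 encode receptors of the ErbB family, and Errfi1 and Lrig1 encode inhibitors that act on these receptors. These 10 genes were taken by symbol from the 55536 genes of the count files. Each of the 10 was found once, and all 10 were among the 15903 genes that passed the filter on low counts. The libraries were made from stromal cells of mice that carry a tdTomato reporter of p16 on the C57Bl/6 background. The cells were gated as CD45-CD31-CD29+ after muscle had been cut from both quadriceps at 10 weeks of age. There were 3 libraries of tdTomato-positive cells (p16+) and 3 of tdTomato-negative cells (p16-). The protocols of the labels list polycaprolactone particles, a decellularized matrix and saline as fillers of the defect, and harvest after 1 or 6 weeks, but they do not tie a filler or a time to these libraries. No label says whether the replicates are different animals, and the p-values therefore cover only the spread between these libraries, which may be technical.

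EGF family ligands are made as membrane proteins, and proteases such as ADAM17 cut them free. The freed ligand binds a receptor, the receptors pair, and the Ras and ERK cascade is switched on. Amphiregulin (Areg) and TGF-alpha (Tgfa) bind the EGF receptor, epiregulin (Ereg), HB-EGF (Hbegf) and betacellulin (Btc) bind the EGF receptor and ErbB4, and neuregulin 1 (Nrg1) binds ErbB3 and ErbB4. ErbB2 has no known ligand and works as a partner of the other receptors. Receptor signalling induces Errfi1, whose product (also called MIG6) binds the kinase domain and blocks it, and LRIG1 lowers the amount of receptor at the surface. In muscle repair, stromal cells are a source of such ligands for neighbouring cells.

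Total counts were 35253406 to 37861713 in the p16+ libraries and 36507067 to 39103909 in the p16- libraries. Cdkn2a, which encodes p16, had 7.82 ± 0.961 CPM (counts scaled to library size) in the p16+ group, against 2.13 ± 0.329 CPM in the p16- group (mean ± SD of 3 libraries, here and throughout). Fibroblast markers were abundant in both groups, with Col1a1 at 37831 ± 909 CPM in p16+, against 20414 ± 2007 CPM in p16-. Of the genes of the gate, Itgb1 (CD29) had 891 ± 21.7 CPM in p16+ and 758 ± 53.4 CPM in p16-, Ptprc (CD45) 7.77 ± 2.22 CPM in p16+ and 4.89 ± 0.929 CPM in p16-, and Pecam1 (CD31) 6.73 ± 1.58 CPM in p16+ and 3.34 ± 0.778 CPM in p16-.

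In p16+ cells the feedback inhibitor Errfi1 and the ligand Tgfa were lower and the ligand Ereg was higher, while neither receptor passed the test. Errfi1 fell to 699 ± 35.2 CPM in p16+, against 1694 ± 60.6 CPM in p16-. Ereg rose to 12.7 ± 0.84 CPM in p16+, against 5.29 ± 1.33 CPM in p16-. Tgfa fell to 0.366 ± 0.268 CPM in p16+, against 4.23 ± 1.36 CPM in p16-. By edgeR's quasi-likelihood test at an adjusted p under 0.05, 1 of the 10 genes was higher and 2 were lower in p16+, and 7 did not pass. Of all genes tested, 16.7% passed, 8.69% as higher and 8.04% as lower. The 3 of 10 was not tested against that background, and with 10 genes nothing is read from the share. The values of the groups did not overlap for 6 of the 10, as for 33.1% of all genes tested. For single genes, permuting the libraries exactly (two-sided, log2 CPM) gave p = 0.1 for each of the 6, the smallest value possible with 3 against 3.

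**Figure D1:**
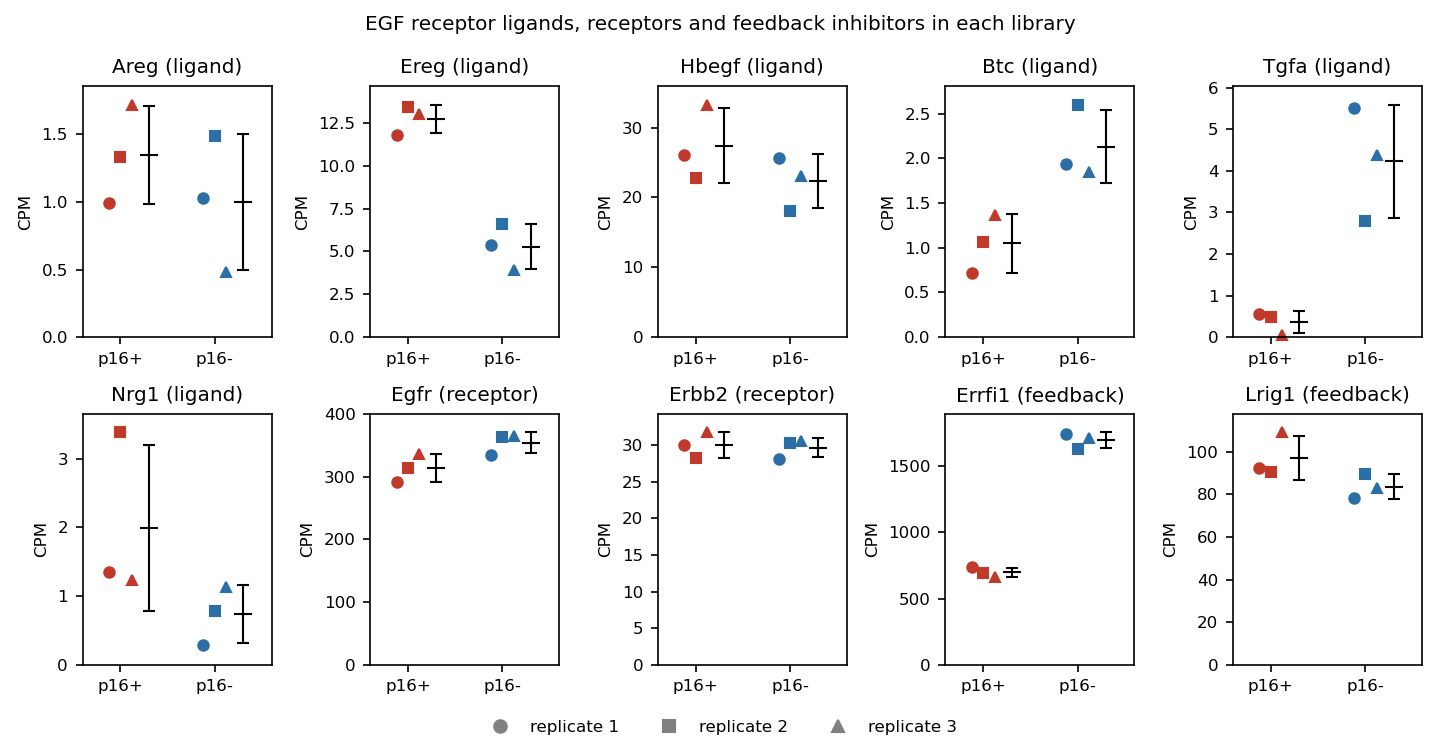
CPM of the 10 genes in each library, p16+ (red) left of p16- (blue), with 1 symbol per replicate number and the mean with its SD in black. The 3 p16+ libraries lie below the 3 p16- libraries for Errfi1, Tgfa and Btc and above them for Ereg, Nrg1 and Lrig1, and the groups overlap for the other genes.

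Errfi1 (ENSMUSG00000028967.10, chromosome 4, 150853919 to 150868892, plus strand, GRCm38) was the member with the smallest p. It had 737, 694 and 667 CPM in the p16+ libraries, against 1744, 1626 and 1711 CPM in the p16- libraries. The lowest p16- library was thus far above the highest p16+ library, and the libraries of each group lay close together. The log2 fold change, p16+ over p16-, was -1.28 (SE 0.08, adjusted p = 6.79e-08), a 2.42-fold lower level in p16+ with a 95% interval of 0.368 to 0.463 for the ratio. By size of p, Errfi1 was number 10 of all genes tested. No exonic base of Errfi1 is shared with another gene of the annotation.

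The other inhibitor, Lrig1 (chromosome 6, 94604529 to 94700158, minus strand), had 92.2, 90.3 and 109 CPM in p16+ and 78.2, 89.7 and 82.9 CPM in p16-. The lowest p16+ library and the highest p16- library were almost level. Lrig1 did not pass (log2 fold change 0.21, SE 0.09, adjusted p = 0.114), and its 95% interval ran from 1.02-fold to 1.32-fold. Of its relatives, which were in the list of receptor inhibitors, Lrig3 rose to 54.1 ± 2.19 CPM in p16+, against 41.0 ± 3.35 CPM in p16- (adjusted p = 0.00378). Of the 2 inhibitors, then, only Errfi1 passed, and the call of Errfi1 held in all 13 alternative settings, with log2 fold changes from -1.35 to -1.24.

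The bases before the starts of Errfi1, Tgfa and Areg, from RefSeq on GRCm38.p6, are shown because the first pair are the members that fell and the window of Areg shares motifs with the one shown for Errfi1. Of the 10 members 7 had an entry: Areg, Btc, Tgfa, Egfr, Erbb2, Errfi1 and Lrig1. Errfi1 has 2 starts in the table, and the window shown is that of the downstream start, which lies in the first intron of the longer transcript. Each window holds the 250 bases before the start, 5′ to 3′ on the strand of the gene, and capitals mark matches on either strand to the motifs named in the next paragraph.
Errfi1, chr4:150854820-150855069, plus strand: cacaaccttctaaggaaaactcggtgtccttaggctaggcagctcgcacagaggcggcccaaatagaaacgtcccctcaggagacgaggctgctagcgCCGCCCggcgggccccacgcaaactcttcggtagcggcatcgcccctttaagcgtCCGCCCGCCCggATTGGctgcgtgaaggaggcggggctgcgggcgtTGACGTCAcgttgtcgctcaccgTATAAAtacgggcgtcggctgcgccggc
Tgfa, chr6:86194972-86195221, plus strand: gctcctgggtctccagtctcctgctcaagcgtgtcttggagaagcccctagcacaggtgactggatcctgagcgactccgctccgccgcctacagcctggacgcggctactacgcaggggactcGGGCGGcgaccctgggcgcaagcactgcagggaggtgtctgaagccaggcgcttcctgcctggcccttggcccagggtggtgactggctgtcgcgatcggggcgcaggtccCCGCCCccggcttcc
Areg, chr5:91139349-91139598, plus strand: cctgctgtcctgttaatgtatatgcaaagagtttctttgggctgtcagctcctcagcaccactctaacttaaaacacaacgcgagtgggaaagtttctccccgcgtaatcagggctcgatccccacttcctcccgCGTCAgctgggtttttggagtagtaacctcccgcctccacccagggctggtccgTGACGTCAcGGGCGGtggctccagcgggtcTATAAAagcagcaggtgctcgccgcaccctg

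The motifs searched were TGANTCA (the AP-1 site), TGACGTCA (the cAMP response element, CRE), its core TGACG, GCGNGGGCG (the EGR site), the CArG box, GGGCGG (the GC box), TATAAA (the TATA box) and CCAAT. They were chosen after the expression values were seen. The CRE contains the core on both strands. The windows shown for Errfi1 and Areg both held the full CRE, at 51 to 44 and 61 to 54 bases before the start, and a TATA box at 28 to 23 and 31 to 26 bases before it. Of all 32851 windows, 1.55% held the full CRE and 12.4% the TATA box. As Areg was shown for its shared motifs, nothing is read from the match. The Tgfa window held neither and had GC boxes alone, which 32.7% of all windows held. The windows shown for Errfi1 and Areg held GC boxes too, and that of Errfi1 a CCAAT match, as did 33.8% of all windows. The AP-1, EGR and CArG motifs, held by 6.75%, 4.7% and 1.47% of all windows, had no match in these 3 windows. The window of the other Errfi1 start held no match to any of these motifs. Errfi1 fell and Areg did not pass.

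Of the 6 ligands, Ereg rose, Tgfa fell and 4 did not pass, with a median log2 fold change of 0.36, against -0.01 for all genes tested. Ereg (ENSMUSG00000029377.5, chromosome 5, 91074622 to 91093646, plus strand) had 11.8, 13.4 and 13 CPM in p16+, against 5.36, 6.58 and 3.92 CPM in p16-. Every p16+ library was above every p16- library. The log2 fold change was 1.27 (SE 0.19, adjusted p = 0.000158), or 2.41-fold with a 95% interval of 1.83 to 3.17. Ereg is also made by macrophages, which the gate on CD45-negative cells should leave out. Of 16 tested leukocyte and macrophage markers 6 rose and 0 fell (8.69% and 8.04% of all genes tested). Among those that rose were C1qc, C1qb, Lyz2 and Csf1r. Csf1r had 28.2 ± 3.39 CPM in p16+, against 12.5 ± 3.28 CPM in p16- (other genes cover 15.1% of its exons). The summed level of that list was 294 to 348 CPM in p16+ and 211 to 238 CPM in p16-. Of this, Lyz2 alone had 168 ± 8.41 CPM in p16+ and 124 ± 12 CPM in p16-. Within the p16+ libraries Ereg ran only from 11.8 to 13.4 CPM, too narrow a spread to set its order beside that of the list. Within p16-, Ereg was highest in replicate 2, where the list sum was lowest (237, 211 and 238 CPM in replicates 1, 2 and 3). Single markers differed in order there, with Ptprc highest in replicate 2 and Csf1r in replicate 3. Nothing is read from orders of 3 libraries. The part of such cells in the rise of Ereg was not tested. In bulk libraries, more cells of a type and more RNA per cell cannot be told apart.

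Tgfa (ENSMUSG00000029999.14, chromosome 6, 86195223 to 86275719, plus strand) showed the widest difference of the 10 genes. It had 0.55, 0.49 and 0.0584 CPM in p16+, against 5.51, 2.80 and 4.38 CPM in p16-. These values rest on 20, 18 and 2 counts in the p16+ libraries, against 224, 111 and 163 counts in the p16- libraries. In p16+ replicate 3 the gene was below the 3 counts taken as the limit of detection. The log2 fold change was -3.51 (SE 0.51, adjusted p = 0.000145), the 18th lowest of all genes tested. Its 95% interval ran from -4.59 to -2.42, and the call held in all 13 alternatives, with log2 fold changes from -3.91 to -3.02.

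Markers of Schwann cells, the glia of peripheral nerve, were lower in the same libraries. Of 6 such markers 0 rose and 5 fell (8.69% and 8.04% of all genes tested), and 1 (S100b) did not pass. Their summed level was 31.9 to 37.7 CPM in p16+ and 64.4 to 107 CPM in p16-, and none was at 0. Sox10, the glial transcription factor gene, had 2.17, 1.80 and 3.30 CPM in p16+ and 10.6, 4.99 and 8.52 CPM in p16-. Within p16-, Tgfa, Sox10, Mbp and Erbb3 were each highest in replicate 1 and lowest in replicate 2. Cdh19 and Foxd3 were lowest in replicate 2 too but highest in replicate 3. For Foxd3 that was 4.25 CPM, against 4.23 CPM in replicate 1. S100b was lowest in replicate 3. Within p16+, Tgfa was lowest in replicate 3, where Sox10, Erbb3, Foxd3 and Cdh19 were highest and S100b was lowest, while Mbp and S100b were highest in replicate 1. With 3 libraries per group, and Tgfa at 20, 18 and 2 counts in p16+, nothing is read from these orders. Whether Schwann cells had a part in the fall of Tgfa was not tested.

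**Figure D2:**
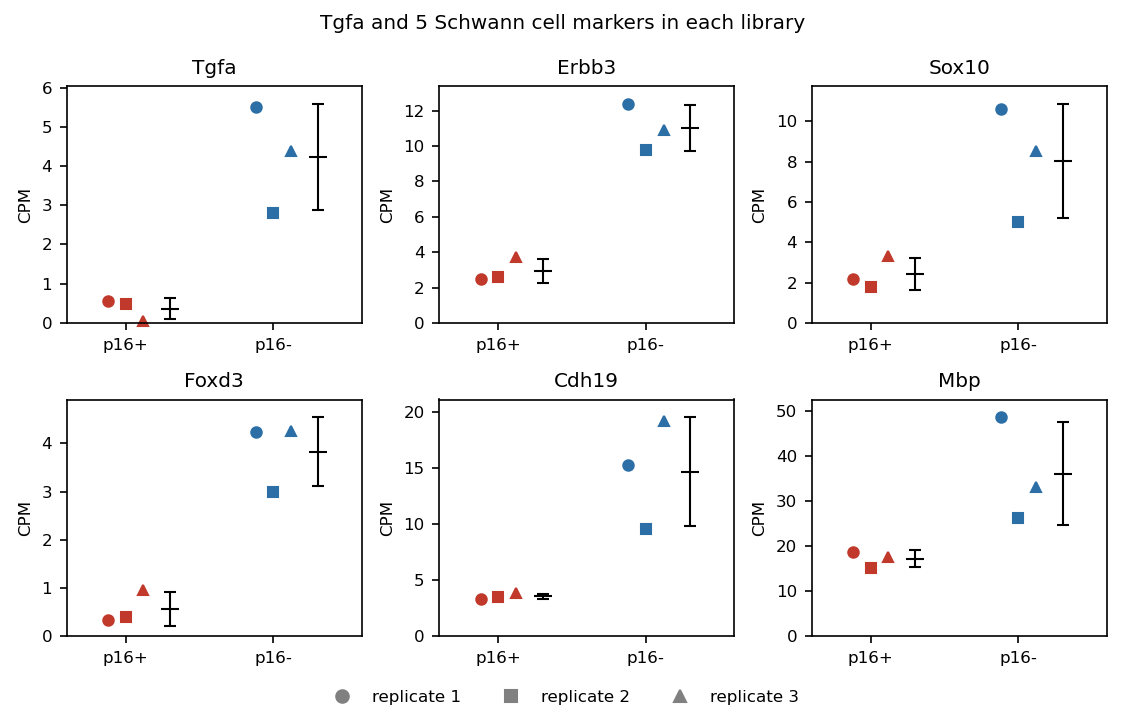
CPM of Tgfa and 5 Schwann cell markers in each library, p16+ (red) left of p16- (blue), with 1 symbol per replicate number and the mean with its SD in black. Tgfa, Erbb3, Sox10, Foxd3, Cdh19 and Mbp each have all 3 p16+ libraries below all 3 p16- libraries.

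The 4 other ligands did not pass. Hbegf (chromosome 18, 36504927 to 36515805, minus strand) had 26.1, 22.8 and 33.3 CPM in p16+ and 25.7, 18.1 and 23.1 CPM in p16-. The groups overlapped (adjusted p = 0.207), and the 95% interval of the ratio was 0.988 to 1.53. Areg (chromosome 5, 91139599 to 91148432, plus strand) had 0.99, 1.33 and 1.72 CPM in p16+ and 1.03, 1.49 and 0.484 CPM in p16-. It rested on 18 to 59 counts per library, and its interval of 0.648 to 2.78 (adjusted p = 0.637) leaves a wide range of differences possible at this depth.

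Btc and Nrg1 stood between these cases, with groups that did not overlap and p-values that missed the threshold after adjustment. Btc (chromosome 5, 91357261 to 91402994, minus strand) had 0.715, 1.06 and 1.37 CPM in p16+ and 1.94, 2.60 and 1.85 CPM in p16- (adjusted p = 0.0906 for a log2 fold change of -1.02, SE 0.39). Nrg1 (chromosome 8, 31814551 to 32884029, minus strand) had 1.35, 3.38 and 1.23 CPM in p16+ and 0.295, 0.782 and 1.13 CPM in p16- (1.43, SE 0.54, adjusted p = 0.0878). Replicate 2 was the highest p16+ library for Nrg1, and p16+ replicate 3 and p16- replicate 3 had equal counts of 42. Without p16+ replicate 2 the log2 fold change of Nrg1 was 0.81 (adjusted p = 0.486), and with low counts left unfiltered Nrg1 passed (adjusted p = 0.0323). Areg, Ereg and Btc lie near each other on chromosome 5, and of these neighbours Ereg alone passed.

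By edgeR's quasi-likelihood test 0 of the 2 receptors passed after adjustment, 1 (Egfr) had an unadjusted p under 0.05, and 0 passed by DESeq2. Egfr (ENSMUSG00000020122.16, chromosome 11, 16752203 to 16918158, plus strand) had 291, 314 and 336 CPM in p16+ and 335, 363 and 364 CPM in p16-. The highest p16+ library just reached the lowest p16- library. The log2 fold change was -0.18 (SE 0.08, adjusted p = 0.162), with a 95% interval of 0.786 to 0.996 for the ratio. With library sizes alone in place of TMM factors, under which the median log2 fold change of all genes was -0.08, Egfr was called lower (-0.25, adjusted p = 0.035). Erbb2 (chromosome 11, 98412470 to 98437716, plus strand) had 30.0, 28.2 and 31.7 CPM in p16+ and 28.1, 30.2 and 30.6 CPM in p16-. The groups were interleaved (log2 fold change 0.01, SE 0.10, adjusted p = 0.943). The 95% interval of the ratio was 0.877 to 1.16.

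Among the remaining receptors and ligands of the family, 5 of 7 could be tested. Of these 5, 0 rose and 1 fell (8.69% and 8.04% of all genes tested). The one that fell was Erbb3, the neuregulin receptor gene that Schwann cells use, which had 2.94 ± 0.69 CPM in p16+, against 11.0 ± 1.32 CPM in p16- (adjusted p = 7.08e-06 for a log2 fold change of -1.91, SE 0.20). It is also in the Schwann cell list. Erbb4 had at most 2 counts in a library and Nrg3 none, and both were left out by the filter. Egf, Epgn, Nrg2 and Nrg4 did not pass, with mean levels under 2 CPM in both groups.

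Compared per length, as TPM (counts per exonic length, scaled to the library), the order of the 10 genes was nearly the same in both groups. Errfi1 was highest, at 767 TPM (736 to 796) in p16+ and 1860 TPM (1820 to 1906) in p16-. By mean TPM it was number 94 of all genes tested. Egfr followed at 109 TPM in p16+ and 123 TPM in p16-, then Lrig1 at 68.4 TPM in p16+ and 59.0 TPM in p16-, Erbb2 at 22.6 TPM in p16+ and 22.4 TPM in p16-, and Hbegf at 22.3 TPM in p16+ and 18.1 TPM in p16-. Erbb2 and Hbegf were not separated by their ranges in p16+. Below them stood Ereg at 12.1 TPM in p16+ and 5.04 TPM in p16-, and Areg at 4.37 TPM in p16+ and 3.24 TPM in p16-. In p16+ Tgfa was lowest at 0.221 TPM, under Btc at 0.915 and Nrg1 at 0.756 TPM, whose ranges overlapped. In p16- Nrg1 was lowest at 0.282 TPM, and the ranges of Ereg, Areg, Tgfa (2.55 TPM) and Btc (1.86 TPM) each overlapped the next.

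Summed over Hbegf, Ereg, Areg, Btc and Tgfa, the 5 measured EGF receptor ligands among the members, the level was 36.1, 37.3 and 46.5 TPM in p16+ and 33.3, 30.3 and 28.8 TPM in p16-. Hbegf made up 50.3% to 58.5% of this sum in p16+ and 49.5% to 66.2% in p16-. The share of Ereg was 26.8% to 34.6% in p16+ and 13.2% to 21.1% in p16-. Tgfa had 0.0765% to 0.91% in p16+ and 5.7% to 9.7% in p16-. The ratio of Errfi1 to Egfr, both in TPM, was 8.01, 6.99 and 6.28 in p16+ and 16.4, 14.2 and 14.9 in p16-. These sums and ratios are descriptions of transcript levels, without a test.

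**Figure D3:**
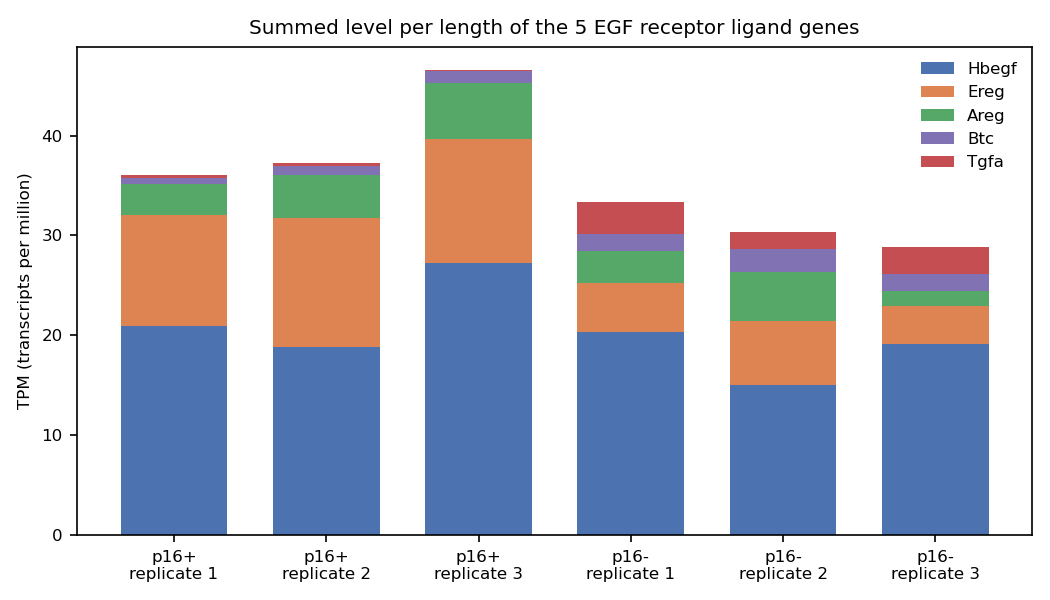
Level per length (TPM) of 5 EGF receptor ligand genes stacked for each library, the 3 p16+ libraries left of the 3 p16- libraries. The Ereg segment is taller in each p16+ library, at 11.1 to 12.9 TPM, than in any p16- library, at 3.79 to 6.39 TPM, and the Tgfa segment is close to 0 in p16+.

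Of 11 genes that act on the release of the ligands 2 rose, 1 fell and 8 did not pass, with a median log2 fold change of 0.08. Of all genes tested, 8.69% rose and 8.04% fell, and with 11 genes nothing is read from the counts. Rhbdf2, which encodes iRhom2, a partner that ADAM17 needs to mature, rose to 34.9 ± 1.86 CPM in p16+, against 17.3 ± 1.9 CPM in p16- (log2 fold change 1.01, adjusted p = 8.1e-06). Adam12, a metalloprotease gene whose product can cut HB-EGF, rose to 261 ± 22.6 CPM in p16+, against 132 ± 24.9 CPM in p16- (adjusted p = 1.65e-05). Timp3, an inhibitor of ADAM17, fell to 293 ± 13.5 CPM in p16+, against 430.4 ± 43.9 CPM in p16- (adjusted p = 0.000273). Other genes cover 21.3% of the Timp3 exons, and reads in shared exons are dropped from the counts. Adam17 itself had 161 ± 6.95 CPM in p16+ and 164 ± 11.8 CPM in p16- (adjusted p = 0.853).

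Of 21 tested genes that lower receptor or ERK signalling, 5 rose and 1 fell (8.69% and 8.04% of all genes tested). The other 15 did not pass, and the list had a median log2 fold change of 0.12. Dusp6, an ERK phosphatase gene, rose to 56.7 ± 4.12 CPM in p16+, against 40.0 ± 1.53 CPM in p16- (adjusted p = 0.000511). Spry2, a Sprouty inhibitor gene, fell to 105 ± 6.6 CPM in p16+, against 157 ± 12.2 CPM in p16- (adjusted p = 0.000107). Its relative Spry1 went the other way, at 87.7 ± 5.24 CPM in p16+, against 72.5 ± 5.65 CPM in p16- (adjusted p = 0.0301). Other genes cover 24.4% of the Spry1 exons, and Spry4 did not pass (adjusted p = 0.802). Lrig3 and the phosphatase gene Ptpn1 rose by 0.40 and 0.34 on the log2 scale. Just 2 rose when replicate 3 of p16+ or of p16- was left out, and Ptpn1 was among those that lost the call (adjusted p = 0.0693 and 0.0674).

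Most genes of the cascade from adaptors to ERK kinases did not pass. Of 18 genes 2 rose and 2 fell (8.69% and 8.04% of all genes tested), and 14 did not pass, with a median of -0.06. Ksr1, a scaffold of the ERK cascade, fell to 54.2 ± 3.06 CPM in p16+, against 83.8 ± 8.74 CPM in p16- (adjusted p = 9.43e-05), and Sos2, a Ras exchange factor gene, fell by 0.39 on the log2 scale (adjusted p = 0.00427). The calls of Gab2 and Map2k2, which rose by 0.35 and 0.27, depended on single libraries. Leaving out p16+ replicate 1, p16+ replicate 2 or p16- replicate 3, or scaling by library size alone, left 0 that rose, and leaving out replicate 3 of p16+ or replicate 2 of p16- left 1.

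Among genes whose transcription follows ERK activity, those that passed did not move one way. Of 10, 3 rose and 2 fell (8.69% and 8.04% of all genes tested), and 5 did not pass, with a median of 0.41. Those that rose were Dusp6, Dusp4 and the ephrin receptor gene Epha2, which had 16 ± 1.43 CPM in p16+ and 10.2 ± 1.18 CPM in p16- (adjusted p = 0.00405). Those that fell were Spry2 and Phlda1. Phlda1 had 122 ± 12.9 CPM in p16+ and 192 ± 35.3 CPM in p16- (adjusted p = 0.000785), and other genes cover 33% of its exons. Ccnd1, Etv4 and Etv5 did not pass (adjusted p = 0.0623, 0.0573 and 0.0806). Each was higher in every p16+ library than in any p16- library, and 33.1% of all genes tested had groups that did not overlap. Other genes cover 23.4% of the Ccnd1 exons. The groups overlapped for Spry4 and Epha4, which did not pass either. Spry2, Dusp4 and Dusp6 are in the list of inhibitors too.

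**Figure D4:**
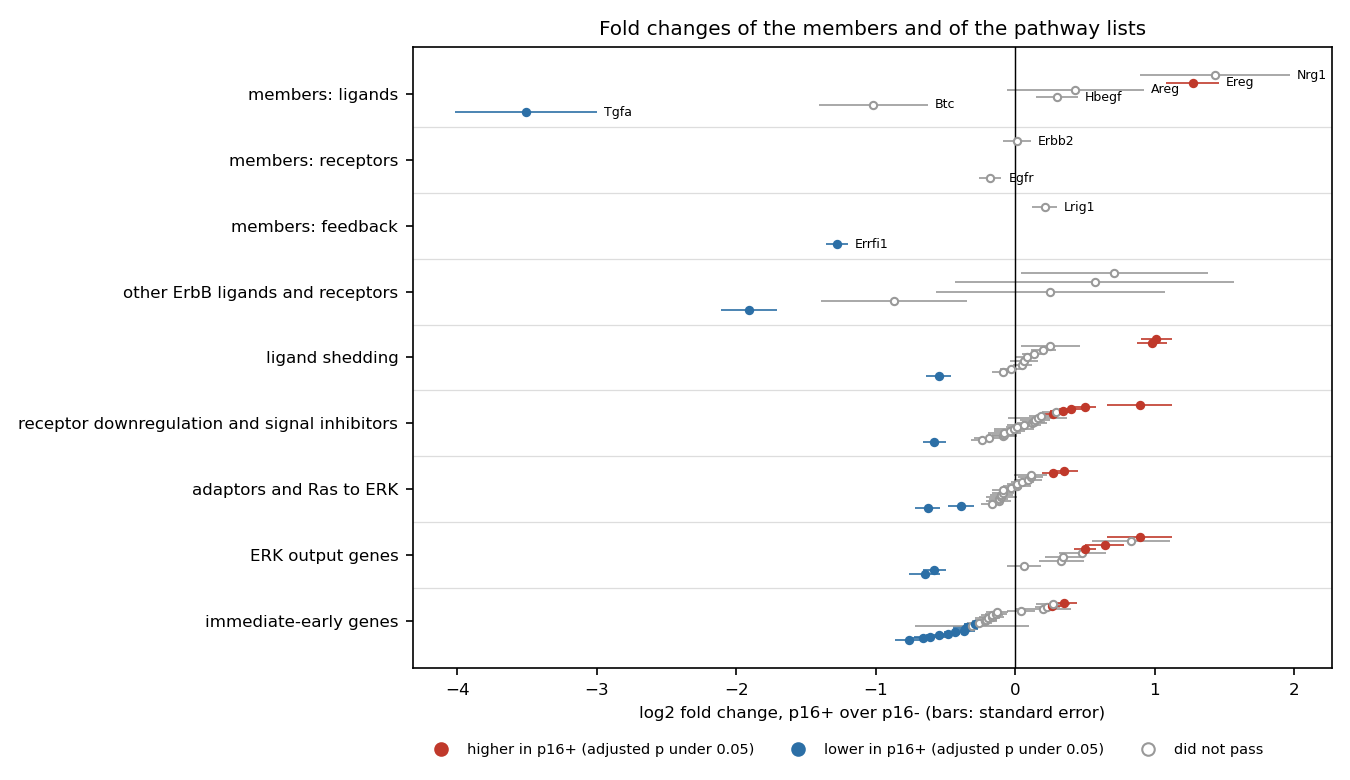
Log2 fold change, p16+ over p16-, with its standard error for the 10 members and the tested genes of the pathway lists. Filled red and blue points passed as higher and lower in p16+, and open points did not pass. Of the genes plotted, Tgfa, Erbb3 and Errfi1 lie farthest to the left, at -3.51, -1.91 and -1.28.

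Errfi1, Areg, Ereg and Hbegf are also genes that respond quickly to stimulation and handling. Of 25 immediate-early genes 2 rose and 10 fell (8.69% and 8.04% of all genes tested), and 13 did not pass. Their median was -0.22, and their summed level was 26829 to 28346 CPM in p16+ and 31390 to 35935 CPM in p16-. Myc fell to 280.1 ± 7.78 CPM in p16+, against 444 ± 45.2 CPM in p16-, and Atf3 to 1172 ± 114 CPM in p16+, against 1979 ± 272 CPM in p16-. Klf4 and Zfp36 fell by 0.55 and 0.48 on the log2 scale. Nr4a2 and Egr3 rose by 0.35 and 0.26 on the same scale (adjusted p = 0.0143 and 0.0256). The fall of Errfi1, 1.28 on that scale, was larger than that of each of these 25 genes, the largest of which was 0.76 for Atf3, and that difference in size was not tested. Leaving out p16- replicate 1 gave 4 that rose, leaving out p16+ replicate 2 gave 1, and leaving out replicate 3 of p16+ or of p16-, or scaling by library size alone, gave 0. Whether handling had a part in the level of Errfi1 was not tested.

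Markers of further cell types gave mixed counts, beside 8.69% of all genes tested that rose and 8.04% that fell. Of 8 endothelial markers 4 rose and 1, Tek, fell (2 rose without p16+ replicate 3), with a summed level of 70.7 to 98.5 CPM in p16+ and 174 to 207 CPM in p16-. Tek alone (49.2 ± 7.79 CPM in p16+, against 168 ± 13.8 CPM in p16-) sets the direction of that sum, and without it the other 7 summed to 27.7 to 42.8 CPM in p16+ and 21 to 26.8 CPM in p16-. Of 15 T cell, innate lymphoid and mast cell markers, cells that make Areg, 5 could be tested and 2 rose, Il1rl1 and Thy1, both of which fibroblasts also express. Neither rose once replicate 3 of either group, or replicate 2 of p16+, was left out. Their list summed to 504 to 549 CPM in p16+ and 416 to 473 CPM in p16-, of which Thy1 alone had 489 ± 23.8 CPM in p16+ and 411 ± 29.6 CPM in p16-. Cd3d, Cd3g and Cd8a had at most 3 counts in each library. Of 4 tested neutrophil markers 0 passed by edgeR, 1 had an unadjusted p under 0.05 and 1 passed by DESeq2. The most abundant, S100a9, had 2.47 ± 0.239 CPM in p16+ and 3.18 ± 0.965 CPM in p16-. Mpo, the 1 with an unadjusted p under 0.05 by edgeR, went the other way. It had 0.76 ± 0.302 CPM in p16+ and 0.101 ± 0.175 CPM in p16-. Those values rest on at most 40 counts per library, and other genes cover 15% of the Mpo exons. Elane was at 0 in every library. Of 2 tested epithelial markers 1 fell (Krt19). Of 10 satellite cell and muscle fibre markers Pax7 rose (a call lost on leaving out replicate 1 or 2 of p16+, or replicate 3 of p16-) and Myog fell. Of 8 pericyte and smooth muscle markers, 5 rose and 0 fell, among them Notch3 and Des. Of 10 fibroblast markers 5 rose and 2, Cd34 and Ly6a, fell.

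The genes whose pattern over the 6 libraries was nearest to a member were found by the root-mean-square difference of log2 CPM, centred on the mean of each gene, among 10498 genes. Nearest to Errfi1 were Card10, Ackr3 and Abca6, at 0.0436, 0.0496 and 0.0541. Ackr3, an atypical chemokine receptor gene, had 475 ± 41.9 CPM in p16+ and 1090 ± 28.1 CPM in p16-. Nearest to Egfr were Foxj3, Dlc1 and Plagl1, at 0.0283 to 0.031, whose adjusted p-values were 0.131 to 0.366. Nearest to Areg were Serpina3f, Mmp16 and Slc39a8, at 0.199 to 0.289, a looser match.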

How the data were processed

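RNA was measured in 6 libraries, 3 p16+ and 3 p16-, grouped by their titles. Each deposited file holds raw fragment counts per gene, which the authors obtained from featureCounts 1.6.0 on exons of GENCODE vM21 in paired mode with no strand option, per the file headers. Reads were aligned with STAR 2.7.3a to GRCm38.p6 after bcl2fastq, per the submitters' processing notes. Reads in exons shared by 2 genes are dropped under such settings, so overlap above 10% of the exonic length is given beside named genes. All 55536 identifiers and positions matched vM21.

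From these counts, genes were filtered with filterByExpr (15903 left, holding 99.918% to 99.932% of the counts), scaled with TMM and tested with edgeR 4.0.16 (glmQLFit, robust, glmQLFTest) in R 4.3.3, p16+ over p16-, with Benjamini-Hochberg adjustment over all genes tested and a threshold of 0.05. All adjusted p-values are from this test unless another is named. CPM uses the TMM-scaled library sizes, log2 CPM a prior count of 2, and TPM the exonic lengths in the files. Standard errors were derived from the fold change and its F statistic, and 95% intervals from the t distribution on the degrees of freedom of the fit. The limit of detection was set by choice at 3 counts, which equals 0.0767 to 0.0851 CPM of the total. The test was tried on simulated data first.

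The members and lists were chosen with earlier results of these data known. Some genes of the marker lists are not reported here, and the counts and sums leave them out. The text names all 10 members, Cdkn2a, the gate genes, from each list up to 4 passing genes ranked by p (where none passed, the most abundant, S100a9 for neutrophils), and the 3 genes nearest to Areg, Errfi1 and Egfr. Further genes were named after their values were seen. They are Adam17, Dusp4, Egr3, Lrig3 beside Lrig1, Nr4a2, S100b, Sox10, Spry1 and genes that could not be tested or did not pass. Alternatives were RLE and upper-quartile factors, library sizes alone, no filter, CPM of at least 1 in 3 libraries, DESeq2 1.42.0, the replicate number as a block, and leaving out each library. No 2 libraries of a group agreed within sampling noise.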

Additional observations from a re-analysis of the deposited data

How the results depend on the processing

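The calls of Ereg, Tgfa and Errfi1 and the lack of a call for Areg, Hbegf, Btc, Erbb2 and Lrig1 were the same in all 13 alternatives. Of 728 values of 56 named genes under the alternatives, 687 kept direction and side of the threshold, 26 lost and 12 gained a call, and 3 changed sign. The 3 were of Erbb2, at -0.06 with library sizes alone and at -0.03 and -0.02 among values of -0.03 to 0.06 with 1 library left out. With library sizes alone, 1 receptor (Egfr) was lower, 7 genes of the pathway lists were higher in place of 12, 36% of all calls were higher in p16+ in place of 52%, and the median of all genes moved to -0.08. Without the filter 2 ligands (Ereg and Nrg1) were higher. Leaving out 1 library gave 5 to 14 higher genes in the pathway lists, and 1887 to 2567 calls over all genes in place of 2660. With the replicate number as a block, 3114 genes passed, with 17 of the pathway lists higher. The deviations of same-numbered libraries correlated at 0.0284, 0.0821 and -0.0046. With 3 libraries per group this cannot show whether the numbers pair them, and the block changed no call of a member. Depth limits Areg, Btc, Nrg1 and, in p16+, Tgfa, which rest on 2 to 124 counts per library.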
